A study of Mus musculus with 9 samples.

Results

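Translation initiation factors are the proteins that bring a ribosome, the initiator tRNA and the start codon of an mRNA together. Their genes were taken from the deposited table as every row whose symbol starts with Eif and a number. The eIF2 kinases (Eif2ak1 to Eif2ak4), the sex-linked Eif2s3x, Eif2s3y and Eif1ax, and 4 pseudogene rows were left out, 11 of 65 matching rows. The remaining 54 rows, of 37980 in the table, carry 52 symbols, since Eif2c2 and Eif4e3 have 2 rows each. Of these, 52 rows reached at least 1 FPKM in at least 3 libraries. FPKM divides the fragments of a transcript by its length and by the size of the library, so levels can be set side by side between genes.

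RNA came from basal hair follicle stem cells, sorted from back and belly skin for high CD49f and for CD34, in male C57BL/6J mice of 3, 19 and 24 months. Each age had 3 libraries, 9 in all, and no treatment or engineered allele is given for any of them. The question was how the transcriptome of these cells differs with age. No label ties the libraries of an age to separate animals, so p-values measure the spread between libraries, which may be technical. The library numbers in the labels are consecutive within 3 months and within the older ages, with a gap between, so age and preparation cannot be told apart in comparisons with 3 months. In such bulk samples, fewer cells of a type and less RNA per cell cannot be told apart either.

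Initiation starts when eIF2, loaded with GTP and the initiator tRNA, joins the small ribosomal subunit together with eIF1, eIF1A, eIF5 and the large scaffold eIF3. The mRNA arrives through eIF4F, in which eIF4E binds the cap, eIF4A unwinds the leader and eIF4G ties both to eIF3. The 4E-BP proteins withhold eIF4E until the kinase mTORC1 phosphorylates them, and stress kinases that phosphorylate eIF2 alpha block its recharging by the exchange factor eIF2B. Hair follicle stem cells are known for a low rate of protein synthesis at rest.

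The sequencing depth of the libraries is unknown, so values carry no counting interval or detection limit. Among values under 0.3 FPKM, ratios between 2 libraries piled up at 1 value for all 15 pairs of 6 libraries, with 6.62 to 11.6% of rows in 1 bin of 0.02 log2 units. The other 3 libraries, replicate 1 at 3 and 19 months and replicate 2 at 24 months, did not share those steps with the 6. The pair of 19 months replicate 1 with 24 months replicate 2 had 5.94%, so they shared steps with each other. All 20 pairs other than this 1 and the 15 had 1.15 to 1.95%, and replicate 1 of 3 months shared steps with no library. What set these 3 libraries apart was not tested, and counts are given with and without them. Cd34 stood at 403 to 632 FPKM and Itga6, which encodes CD49f, at 72.7 to 117 FPKM over the 9 libraries. The bulge keratin Krt15 was listed at 0 in all 9 and the basal keratin Krt5 in all 3 libraries of 19 months. Krt5 stood at 2160 to 7576 FPKM at 3 and 24 months, and the basal keratin Krt14 at 4024 to 4972 FPKM at 19 months. Such zeros may be failed estimates and are not read as absence. Of 10 sebaceous gland markers tested with limma, 6 were called lower at 19 than at 3 months at an adjusted p of 0.05. At 24 against 3 months 6 were called lower and 1 higher, and at 24 against 19 months 1 was called lower. The shares of all genes called in these comparisons were 1.56%, 3.84% and 0.93%. All 10 had a mean of at least 1 FPKM at 3 months, 7 at 19 months and 6 at 24 months, and their summed level was 331 to 427, 362 to 406 and 444 to 537 FPKM at 3, 19 and 24 months. Most of that sum was Mgst1, with means of 211, 233 and 366 FPKM, so the sum mainly follows this gene. Of 9 immune markers in the table, 4 had a mean of at least 1 FPKM at each age, with sums of 33.4 to 72.4, 25.3 to 57.0 and 36.0 to 67.1 FPKM, of which Cd74 alone held 17.6 to 53.7 FPKM. Of the 4 immune markers tested, Fcer1g was called lower at 19 than at 3 months and higher at 24 than at 19 months (limma adjusted p of 0.0373 and 0.00403), with means of 3.70, 1.52 and 5.92 FPKM at 3, 19 and 24 months. Both endothelial markers tested, Ramp2 and Egfl7, were called lower at 24 than at 3 months. Sums over the 6 endothelial markers were 12.3 to 14.7, 10 to 11.0 and 6.09 to 8.03 FPKM. Ramp2 and Egfl7 made up most of each sum and were the only 2 with a mean of at least 1 FPKM. Of those not tested, Tie1 averaged 0.467, 0.427 and 0.557 FPKM and Pecam1 0.24, 0.355 and 0.189 FPKM at 3, 19 and 24 months. Cdh5 was listed at 0 in all libraries of both older ages, and also in replicates 1 and 3 of 3 months. Of 5 melanocyte markers tested, Tyrp1 was called lower at both older ages than at 3 months, with sums of 37.9 to 46.3, 31.9 to 33.0 and 29.2 to 34.7 FPKM. Of 2 fibroblast and 6 suprabasal markers tested, 0 were called by limma in any comparison, while an unadjusted p under 0.05 was reached by 1, 1 and 0 fibroblast and 2, 1 and 1 suprabasal markers at 19 against 3, 24 against 3 and 24 against 19 months. Of 10 stem cell markers tested, Nfatc1 and Sox9 were called higher at 19 than at 3 months and Lgr5 lower at 24 than at 3 months. The part of these cells in the values below was not tested.

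The initiation factor genes differed widely in level. Among the 51 protein-coding rows that were tested, mean levels over the 9 libraries ran from 1.21 FPKM for a row of Eif4e3 to 746 FPKM for Eif3k, with a median of 41.7 FPKM. Of these 51, 13 averaged at least 100 FPKM, 28 between 10 and 100 FPKM and 10 under 10 FPKM. Eif3k, Eif1, Eif5a, Eif3h and Eif4a2 led the order. The germ cell form Eif4e1b (0 to 0.325 FPKM) and Eif2c5 (0.0555 to 0.347 FPKM) were under the filter. Between libraries, the highest of the 9 values was a median of 1.45 times the lowest, and it was under 2 times the lowest in 47 of 51 rows. The 4 exceptions were Eif4ebp3 (4.18 times), Eif4ebp2 (2.69 times), Eif4g2 (2.14 times) and Eif5a2 (2.0 times).

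**Figure D1:**
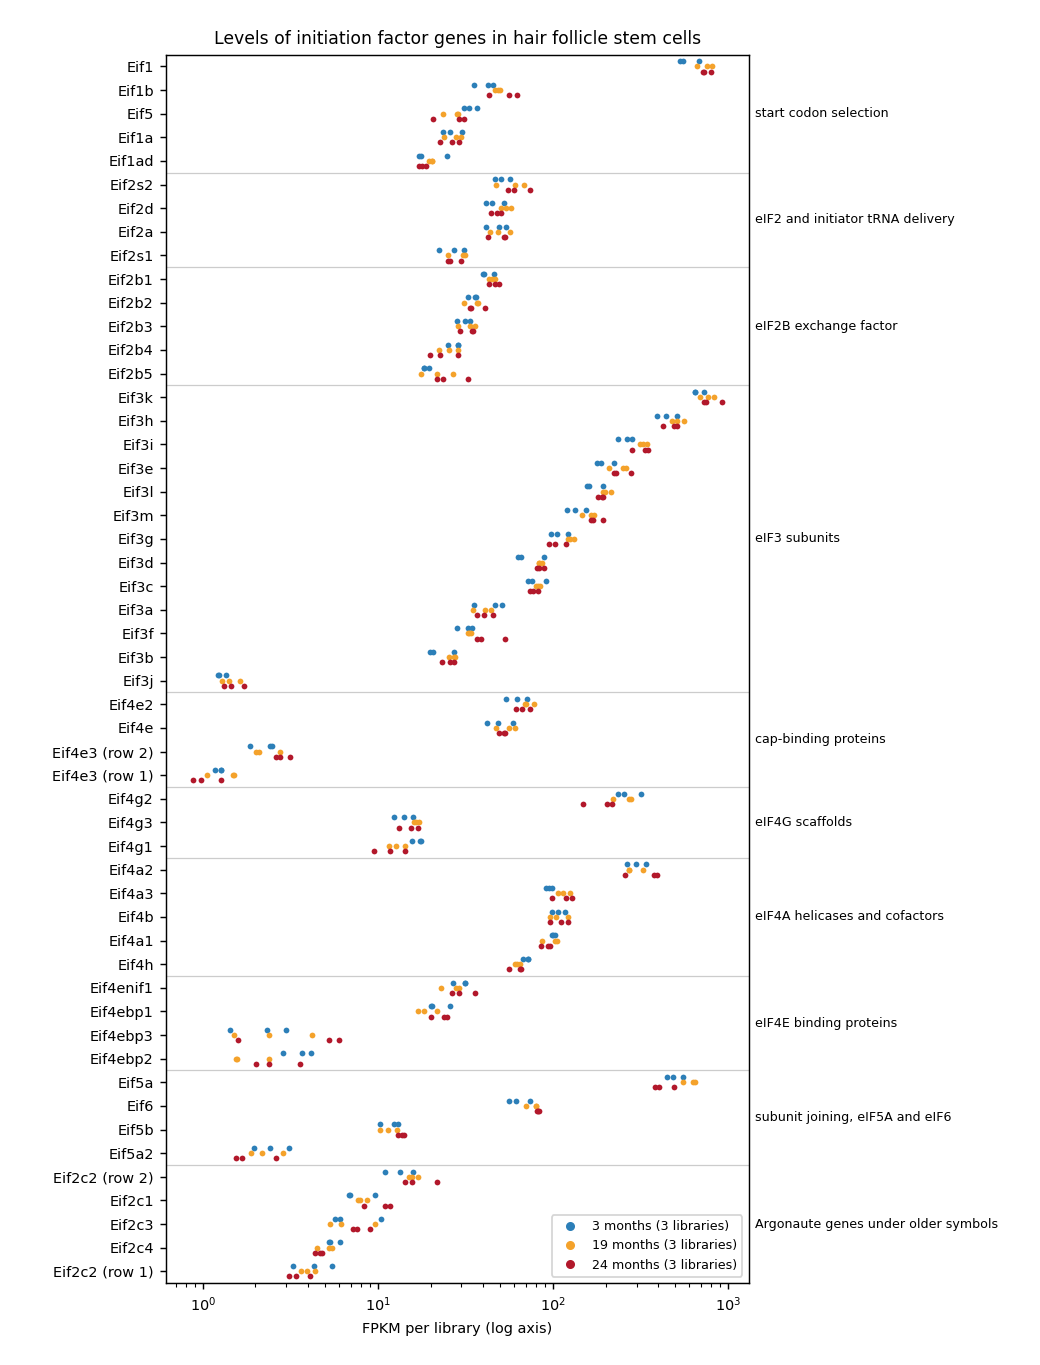
FPKM of the 52 initiation factor rows that reached at least 1 FPKM in at least 3 libraries, on a log axis, with 1 point per library coloured by age and rows grouped by role. Within the eIF3 group the means run from 1.41 FPKM for Eif3j, whose level is uncertain, to 746 FPKM for Eif3k. The 5 genes of eIF2B lie between 22.3 and 44.5 FPKM.

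Not one initiation factor gene passed the test at an adjusted p of 0.05 in any of the 3 age comparisons. The test was limma on log2(FPKM + 1) over 11509 protein-coding genes, two-sided, with Benjamini-Hochberg adjustment over all of them. At 19 against 3 months, 0 of 51 rows were called, against 1.56% of all genes tested (0.6% higher and 0.964% lower). At 24 against 3 months the count was again 0 of 51, against 3.84% of all genes (1.5% higher and 2.34% lower). At 24 against 19 months it was 0 of 51, against 0.93% (0.712% higher and 0.217% lower). A fit over all 14275 rows of every gene type called 0 of 52 in each comparison, against 0.28%, 0.203% and 0.049% of its rows. In the fit of the 6 libraries with shared steps, 0, 0 and 1 of 51 were called, against 1.09%, 3.27% and 2.67% of genes; the 1 was Eif5a at 24 against 19 months.

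Without adjustment, p was under 0.05 for 4 of 51 at 19 against 3 months (Eif1, Eif3i, Eif4ebp2 and Eif4g1), against 15.7% of all genes. At 24 against 3 months it was 10 of 51 (Eif1, Eif1b, Eif2b5, Eif3e, Eif3f, Eif3i, Eif3m, Eif4g1, Eif4g2 and Eif6), against 21.6%. At 24 against 19 months it was 3 of 51 (Eif3f, Eif4g2 and Eif5a), against 12.8%. The 2 comparisons with 3 months share their 3-month libraries.

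The intervals rest on the spread between libraries, which may be technical, so they do not bound a difference between animals. The 95% interval of the log2 change lay within 1 unit of 0, a 2-fold difference on the log2(FPKM + 1) scale, for 50 of 51 rows in each comparison. For rows at a few FPKM, 1 unit on this scale is more than a 2-fold difference in FPKM. The share over all genes was 93.7% at 19 against 3 months, 91.6% at 24 against 3 months and 93.7% at 24 against 19 months. The exceptions were Eif4ebp2 at 19 against 3 months and Eif4ebp3 in both comparisons of 24 months. The median log2 change over the 51 rows was 0.06, 0.08 and 0.00 at 19 against 3, 24 against 3 and 24 against 19 months, beside 0.01, 0.00 and -0.02 over all genes. Changes were above 0 for 34, 34 and 25 of the 51, against 50.8%, 49.5% and 46.8% of all genes. These counts were 29, 31 and 29 after quantile normalization and 37, 37 and 27 after median scaling. Without replicate 1 of 3 months they were 30, 31 and 25. Without replicate 4 of 24 months they were 34, 28 and 15. The counts thus depend on the scaling and on single libraries.

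**Figure D2:**
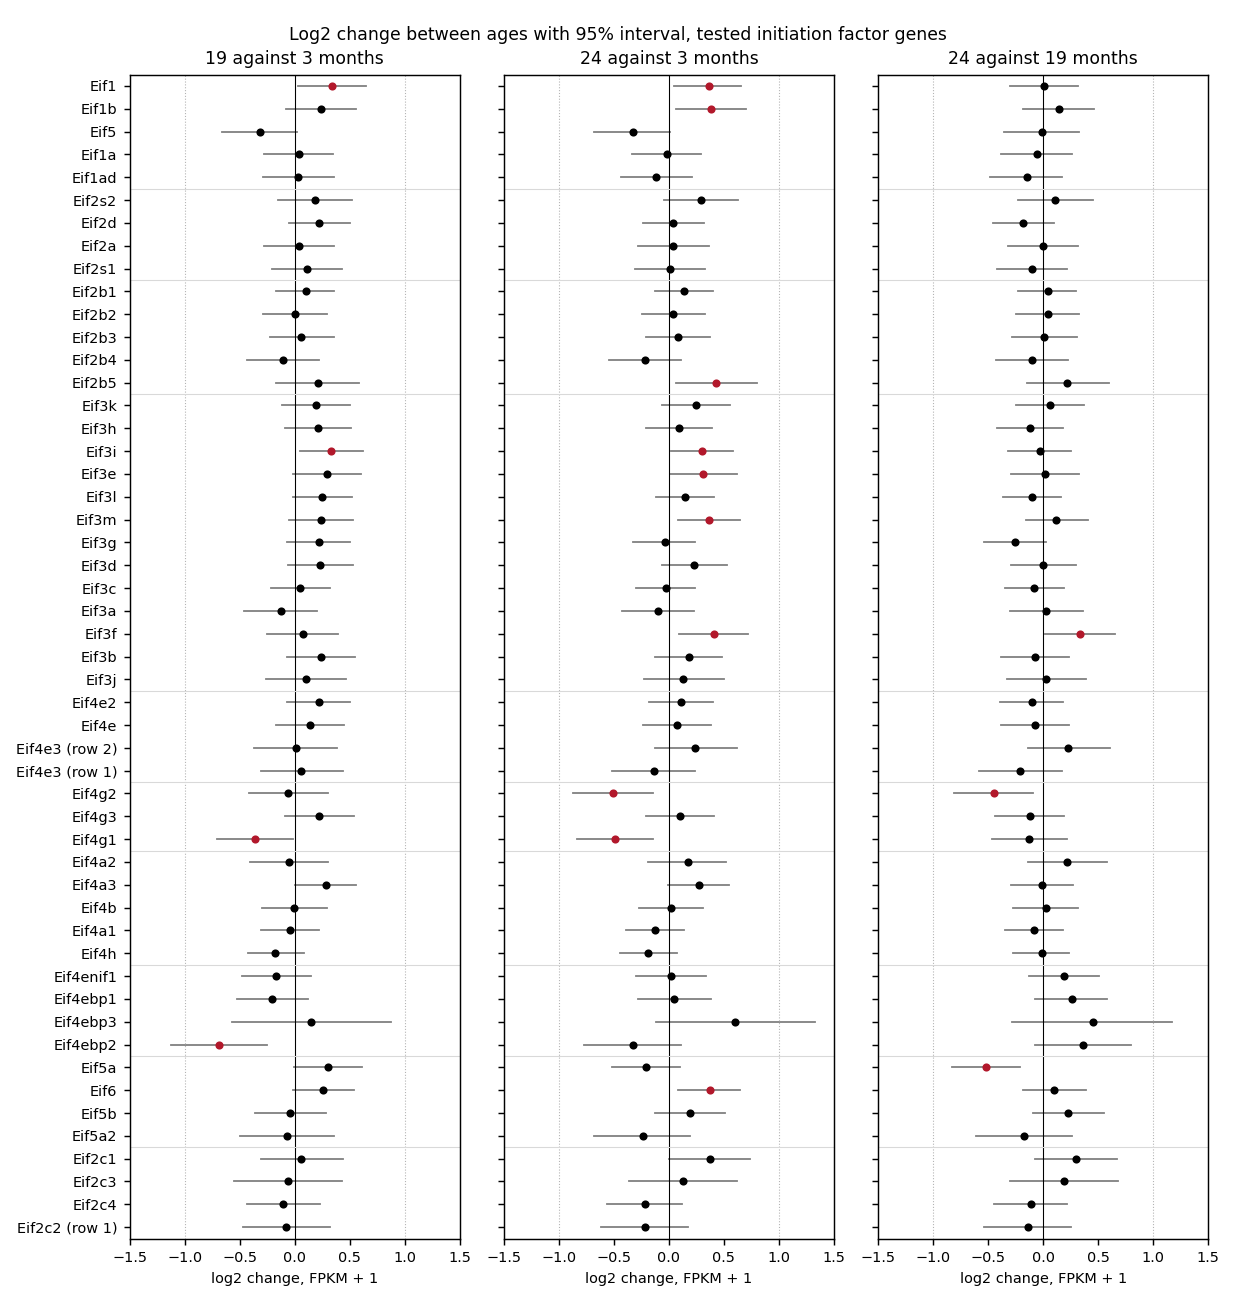
Log2 change in FPKM + 1 with its 95% interval for the 51 tested initiation factor rows, in 3 panels for 19 against 3, 24 against 3 and 24 against 19 months, with rows ordered by role as in the plot of levels. Red points have an unadjusted interval that leaves out 0, dotted lines mark 1 log2 unit, and 0 of 51 rows passed the adjusted test in any panel.

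Eif1 stood far above the other genes of start codon selection, and none of the 5 passed the test. Eif1, which makes the scanning ribosome reject wrong start codons, had 551, 682 and 534 FPKM at 3 months, 668, 759 and 808 at 19 months and 721, 730.4 and 798 at 24 months. At 24 months all 3 libraries lay above all 3 of 3 months, while at 19 months the lowest library lay below the highest of 3 months. The log2 change of Eif1 was 0.34 ± 0.14 (SE, adjusted p = 0.266 by limma) at 19 against 3 months and 0.36 ± 0.14 (SE, adjusted p = 0.169 by limma) at 24 against 3 months. Its paralog Eif1b stood between 35.2 and 62.7 FPKM, and the ratio of Eif1 to Eif1b stayed between 12.7 and 16.9 in the 9 libraries. Eif5, the factor that makes eIF2 hydrolyse its GTP at the start codon, had 36.9, 31.1 and 33.2 FPKM at 3 months, 23.5, 28.2 and 28.8 at 19 months and 20.5, 29.1 and 31.1 at 24 months. Both older ages had lower means than 3 months, and only the 19-month libraries did not overlap those of 3 months. The log2 change of Eif5 was -0.32 ± 0.16 (SE, adjusted p = 0.355 by limma) at 19 against 3 months and -0.33 ± 0.16 (SE, adjusted p = 0.248 by limma) at 24 against 3 months. Eif1a, the autosomal eIF1A gene, and Eif1ad, named for its eIF1A-like domain, ran from 22.8 to 30.4 and from 17.1 to 24.9 FPKM.

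Subunits of eIF2 and the other carriers of initiator tRNA had log2 changes between -0.18 and 0.29, and 0 of 4 passed the test. Eif2s1, the alpha subunit on which the stress kinases act, had 22.4, 31.2 and 27.1 FPKM at 3 months, 25.1, 30.4 and 31.5 at 19 months and 25.1, 25.8 and 29.96 at 24 months. Its ages overlapped, and the log2 change was 0.11 ± 0.15 (SE, adjusted p = 0.77 by limma) at 19 against 3 months and 0.01 ± 0.15 (SE, adjusted p = 0.976 by limma) at 24 against 3 months. Eif2s2, the beta subunit, had 50.7, 56.7 and 46.4 FPKM at 3 months, 47.2, 60.8 and 68.7 at 19 months and 60.2, 55.3 and 74.3 at 24 months. It lay above Eif2s1 in every library, at 1.71 to 2.48 times its level, and its log2 change at 24 against 3 months was 0.29 ± 0.16 (SE, adjusted p = 0.3 by limma). Eif2d, which can deliver tRNA without GTP, had 45.1, 52.3 and 41.5 FPKM at 3 months, 50.7, 57.97 and 53.6 at 19 months and 44.5, 47.7 and 50.5 at 24 months. All 3 of its 24-month libraries lay below all 3 of 19 months, with a log2 change of -0.18 ± 0.13 (SE, adjusted p = 0.619 by limma). Eif2a, a separate initiator tRNA carrier despite a symbol close to eIF2 alpha, ran from 41.4 to 56.7 FPKM.

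The 5 subunit genes of eIF2B, the exchange factor that reloads eIF2 with GTP, were expressed within a 2.0-fold range of means, from 22.3 FPKM for Eif2b5 to 44.5 FPKM for Eif2b1. Eif2b5, the catalytic epsilon subunit, had 18.3, 18.4 and 19.7 FPKM at 3 months, 17.6, 26.8 and 21.9 at 19 months and 21.9, 23.5 and 32.7 at 24 months. All 24-month libraries lay above all 3-month libraries, and replicate 4 of 24 months was the highest of the 9. The log2 change was 0.43 ± 0.18 (SE, adjusted p = 0.169 by limma) at 24 against 3 months and 0.21 ± 0.18 (SE, adjusted p = 0.604 by limma) at 19 against 3 months. Eif2b1, Eif2b2, Eif2b3 and Eif2b4 stood at 40.1 to 49.5, 31.1 to 41.0, 28.4 to 35.8 and 19.9 to 28.9 FPKM over the 9 libraries. These 4 subunits had log2 changes between -0.22 and 0.14 at 24 against 3 months.

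The 13 subunit genes of eIF3, the scaffold that holds the small subunit and the mRNA, held the largest spread of levels of any role group, from 1.41 to 746 FPKM on average. That rank rests on Eif3j, whose low level is uncertain, and the next lowest subunit, Eif3b, averaged 24.9 FPKM. Eif3a, the subunit that spans the complex, had 35.4, 46.5 and 50.9 FPKM at 3 months, 34.9, 44.5 and 40.9 at 19 months and 36.8, 40.5 and 45.4 at 24 months. The ages overlapped, and the log2 change was -0.13 ± 0.16 (SE, adjusted p = 0.726 by limma) at 19 against 3 months and -0.10 ± 0.16 (SE, adjusted p = 0.759 by limma) at 24 against 3 months. Eif3c, its partner in the core, had 72.2, 91.3 and 75.4 FPKM at 3 months, 80.3, 83.99 and 82.4 at 19 months and 77.3, 73.8 and 81.9 at 24 months. Its log2 change was 0.05 ± 0.13 (SE, adjusted p = 0.872 by limma) at 19 against 3 months and -0.03 ± 0.13 (SE, adjusted p = 0.92 by limma) at 24 against 3 months, and the 19-month and 24-month libraries lay within the range of 3 months.

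Other subunits of eIF3 gave larger estimates at 24 against 3 months, and 0 of 13 passed the test. Eif3e, a subunit that contacts eIF4G, had 177, 223 and 188 FPKM at 3 months, 208, 261 and 252 at 19 months and 223, 229 and 280.2 at 24 months. All 24-month libraries lay above those of 3 months, at the nearest by less than 1 FPKM, with a log2 change of 0.31 ± 0.15 (SE, adjusted p = 0.225 by limma). Pseudogene copies of Eif3e, at 0.61 to 4.88 FPKM in the table, may share reads with it. Eif3f, a subunit with an MPN domain, had 32.5, 28.5 and 34.5 FPKM at 3 months, 32.6, 33.3 and 34.2 at 19 months and 39, 36.9 and 52.9 at 24 months. At 24 months all 3 libraries lay above those of both other ages, and replicate 4 stood well above the others. The log2 change of Eif3f was 0.41 ± 0.15 (SE, adjusted p = 0.131 by limma) at 24 against 3 months and 0.34 ± 0.15 (SE, adjusted p = 0.351 by limma) at 24 against 19 months. Eif3i, a subunit with a propeller of WD repeats, had 235, 284 and 264 FPKM at 3 months, 314, 344 and 328 at 19 months and 333, 282 and 350.3 at 24 months. Its 19-month libraries lay above all of 3 months, while replicate 3 of 24 months lay within the 3-month range. The log2 change of Eif3i was 0.33 ± 0.13 (SE, adjusted p = 0.237 by limma) at 19 against 3 months and 0.30 ± 0.13 (SE, adjusted p = 0.209 by limma) at 24 against 3 months.

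Eif3k, Eif3h and Eif3m ran from 644 to 927, 394.0 to 560.0 and 121 to 193 FPKM over the 9 libraries. Their log2 change at 24 against 3 months was 0.25, 0.09 and 0.36 (limma adjusted p of 0.345, 0.755 and 0.135). The subunits Eif3l, Eif3g, Eif3d and Eif3b ran from 157 to 215, 94.6 to 132, 63.4 to 88.5 and 19.9 to 27.5 FPKM over the 9 libraries. Their log2 changes lay between 0.22 and 0.25 at 19 against 3 months and between -0.04 and 0.23 at 24 against 3 months.

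As a group, eIF3 subunits had a median log2 change of 0.22 at 19 against 3 months and 0.18 at 24 against 3 months, beside 0.01 and 0.00 over all genes. The change was above 0 for 12 of 13 and 10 of 13 subunits, but for 9 of 13 in each after quantile normalization, with medians of 0.07 and 0.11. At 24 against 19 months 7 of 13 were above 0, and 2 of 13 without replicate 4 of 24 months or 4 of 13 without replicate 1 of 19 months. Relative to each gene's mean over the 9 libraries, the median eIF3 subunit stood at -0.22, -0.01 and -0.20 log2 units in the 3-month libraries, at 0.01, 0.13 and 0.07 in those of 19 months and at 0.03, -0.04 and 0.15 in those of 24 months. Replicate 2 of 3 months thus stood within the values of the older libraries. Cytosolic ribosomal protein genes, whose mRNAs are known to be translated under control of mTORC1, stood at -0.07, -0.16 and -0.40 in the 3-month libraries, -0.04, 0.02 and 0.06 at 19 months and 0.23, -0.09 and 0.43 at 24 months. Eif3j, at 1.22 to 1.73 FPKM, has a near-identical copy elsewhere in the genome, and its level is uncertain.

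**Figure D3:**
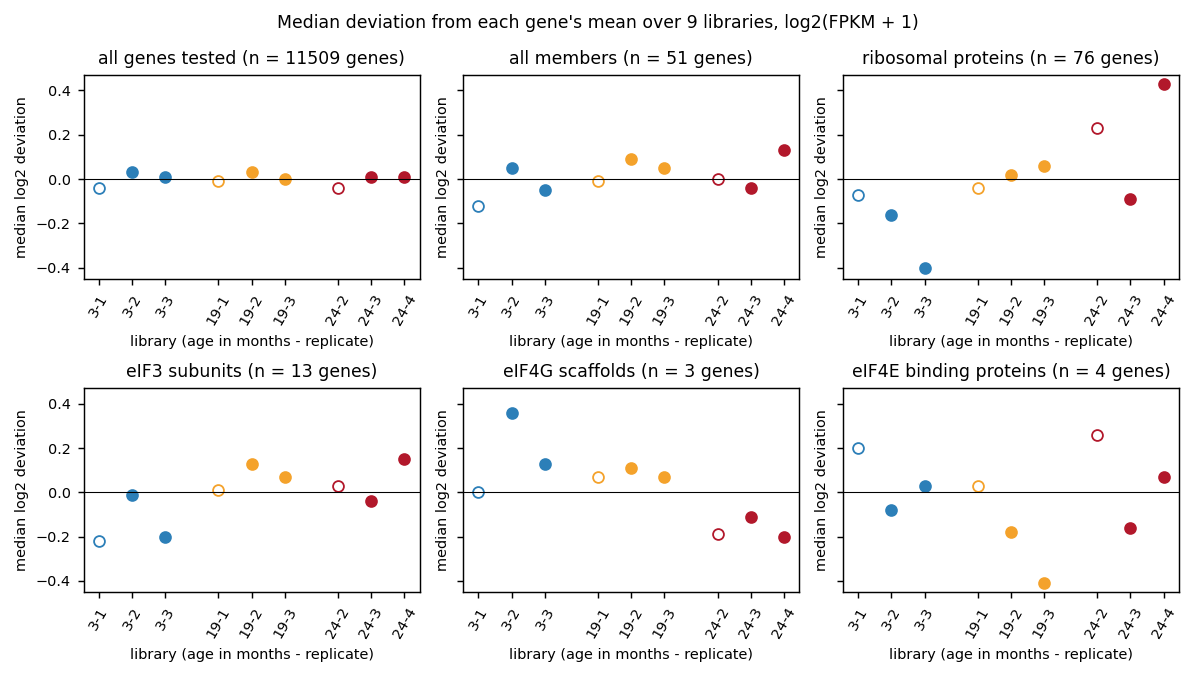
Median log2 deviation of 6 gene sets from each gene's mean over 9 libraries, with 1 point per library, libraries ordered by age and named by age in months and replicate. Open circles are the 3 libraries that did not share low-value steps with the other 6; the eIF3 medians run from -0.22 to 0.15 and those of the 51 initiation factor rows from -0.12 to 0.13.

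The cap-binding genes had small estimates in every comparison, from -0.21 to 0.24. Eif4e, the protein that recognises the mRNA cap, had 42.1, 58.9 and 48.4 FPKM at 3 months, 47.5, 60.4 and 56.4 at 19 months and 52.8, 49.4 and 53.04 at 24 months. The 3 ages overlapped, and the log2 change was 0.14 ± 0.15 (SE, adjusted p = 0.684 by limma) at 19 against 3 months and 0.07 ± 0.15 (SE, adjusted p = 0.831 by limma) at 24 against 3 months, with a 95% interval of -0.24 to 0.38. Eif4e2, a cap-binding homologue known to repress translation, was the more abundant of the pair, with a ratio of Eif4e to Eif4e2 of 0.676 to 0.896. The 2 rows of Eif4e3 overlap in later annotation and stood at 0.879 to 1.51 and 1.87 to 3.15 FPKM, so their split is uncertain.

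The eIF4G scaffolds gave the lowest estimates at 24 against 3 months, for 2 of the 3 genes. Eif4g1, the main scaffold that joins cap, helicase and eIF3, had 17.3, 17.7 and 15.6 FPKM at 3 months, 14.4, 12.8 and 11.6 at 19 months and 14.3, 11.7 and 9.54 at 24 months. All 6 older libraries lay below all 3 of 3 months, and those of 19 and 24 months overlapped. The log2 change of Eif4g1 was -0.49 ± 0.16 (SE, adjusted p = 0.1 by limma) at 24 against 3 months and -0.36 ± 0.16 (SE, adjusted p = 0.291 by limma) at 19 against 3 months. Over the 18 alternative fits its change at 24 against 3 months ran from -0.63 to -0.31, with an adjusted p of 0.0569 to 0.377. Eif4g2, a scaffold that lacks the site for eIF4E and serves cap-independent initiation, had 234, 319 and 256 FPKM at 3 months, 220.3, 279.8 and 272 at 19 months and 149, 217 and 204 at 24 months. All 3 libraries of 24 months lay below all 6 of the younger ages. Its log2 change was -0.51 ± 0.17 (SE, adjusted p = 0.1 by limma) at 24 against 3 months and -0.45 ± 0.17 (SE, adjusted p = 0.262 by limma) at 24 against 19 months. The first of these had an adjusted p between 0.0501 and 0.282 over the alternative fits.

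Eif4g3, the paralog of Eif4g1, averaged 14.1 ± 1.74 FPKM at 3 months, 16.6 ± 0.628 at 19 months and 15.2 ± 1.85 at 24 months (SD, n = 3 each), with a log2 change of 0.10 ± 0.15 (SE, adjusted p = 0.74 by limma) at 24 against 3 months. The ratio of Eif4g1 to Eif4g3 was 1.40, 1.26 and 0.98 in the 3-month libraries, 0.833, 0.775 and 0.722 at 19 months and 1.08, 0.691 and 0.616 at 24 months. The 3-month and 19-month ratios did not overlap, while replicate 2 of 24 months lay within the 3-month range. The ratio of Eif4e to Eif4g1 averaged 2.95 ± 0.466, 4.30 ± 0.867 and 4.49 ± 0.965 at 3, 19 and 24 months (SD, n = 3 each), and no test was run on the ratios.

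Among the eIF4A helicases and their cofactors 0 of 5 passed the test, and Eif4a2 was the most abundant. Eif4a1, the helicase usually found in proliferating cells, had 99.9, 103 and 98.7 FPKM at 3 months, 86.2, 106 and 102 at 19 months and 96.7, 85.97 and 93.8 at 24 months. The 24-month libraries lay below all of 3 months, with a log2 change of -0.13 ± 0.12 (SE, adjusted p = 0.595 by limma). Eif4a2, its close paralog, had 341, 298 and 266 FPKM at 3 months, 272, 327 and 270.5 at 19 months and 258, 375 and 394 at 24 months. It exceeded Eif4a1 in every library, by 2.64 to 4.36 times, and its log2 change was 0.17 ± 0.17 (SE, adjusted p = 0.604 by limma) at 24 against 3 months. Eif4b, a cofactor that stimulates the helicase, had 99.3, 117 and 107 FPKM at 3 months, 105, 122 and 96.3 at 19 months and 96.8, 111 and 121 at 24 months. It had a log2 change of 0.02 ± 0.14 (SE, adjusted p = 0.952 by limma) at 24 against 3 months, with a 95% interval of -0.27 to 0.31. Eif4h, a related cofactor, ran from 55.9 to 72.4 FPKM with all older libraries below those of 3 months, and the exon junction helicase Eif4a3 ran from 91.3 to 129 FPKM with all older libraries above those of 3 months.

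The eIF4E-binding proteins included the rows with the largest estimates at 19 against 3 and 24 against 3 months, Eif4ebp2 and Eif4ebp3, both at low levels. Eif4ebp1, the best known translational repressor under mTORC1, had 25.8, 20.1 and 20.4 FPKM at 3 months, 21.8, 18.3 and 16.9 at 19 months and 23.8, 20.1 and 24.7 at 24 months. The ages overlapped, and the log2 change was -0.21 ± 0.15 (SE, adjusted p = 0.548 by limma) at 19 against 3 months and 0.26 ± 0.15 (SE, adjusted p = 0.529 by limma) at 24 against 19 months. Eif4ebp2, a second repressor of the same kind, had 4.15, 2.87 and 3.697 FPKM at 3 months, 2.38, 1.58 and 1.54 at 19 months and 3.59, 2.02 and 2.401 at 24 months. All 3 libraries of 19 months lay below all 3 of 3 months, and those of 24 months overlapped both. The log2 change was -0.69 ± 0.21 (SE, adjusted p = 0.106 by limma) at 19 against 3 months, the largest in size among the 51 rows of that comparison, with a 95% interval of -1.13 to -0.25. Over the alternatives that change ran from -0.94 to -0.60, with an adjusted p of 0.0794 to 0.359. The lowest-numbered library of each age held the highest Eif4ebp2 value of its age.

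Eif4ebp1 exceeded Eif4ebp2 in every library, by 5.51 to 7.0 times at 3 months and 9.17 to 11.6 times at 19 months. At 24 months the ratio was 6.61, 9.93 and 10.3. Eif4ebp3, the third binding protein, had 2.99, 1.43 and 2.32 FPKM at 3 months, 4.21, 2.404 and 1.504 at 19 months and 5.24, 1.59 and 5.99 at 24 months. Its libraries differed widely within each age, and the ages overlapped. The log2 change was 0.60 ± 0.34 (SE, adjusted p = 0.32 by limma) at 24 against 3 months, with a 95% interval of -0.12 to 1.33. Eif4enif1, which carries eIF4E into the nucleus, ran from 22.9 to 35.7 FPKM. All 4 genes of the group had a log2 change above 0 at 24 against 19 months, with a median of 0.31, but each was short of the threshold.

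**Figure D4:**
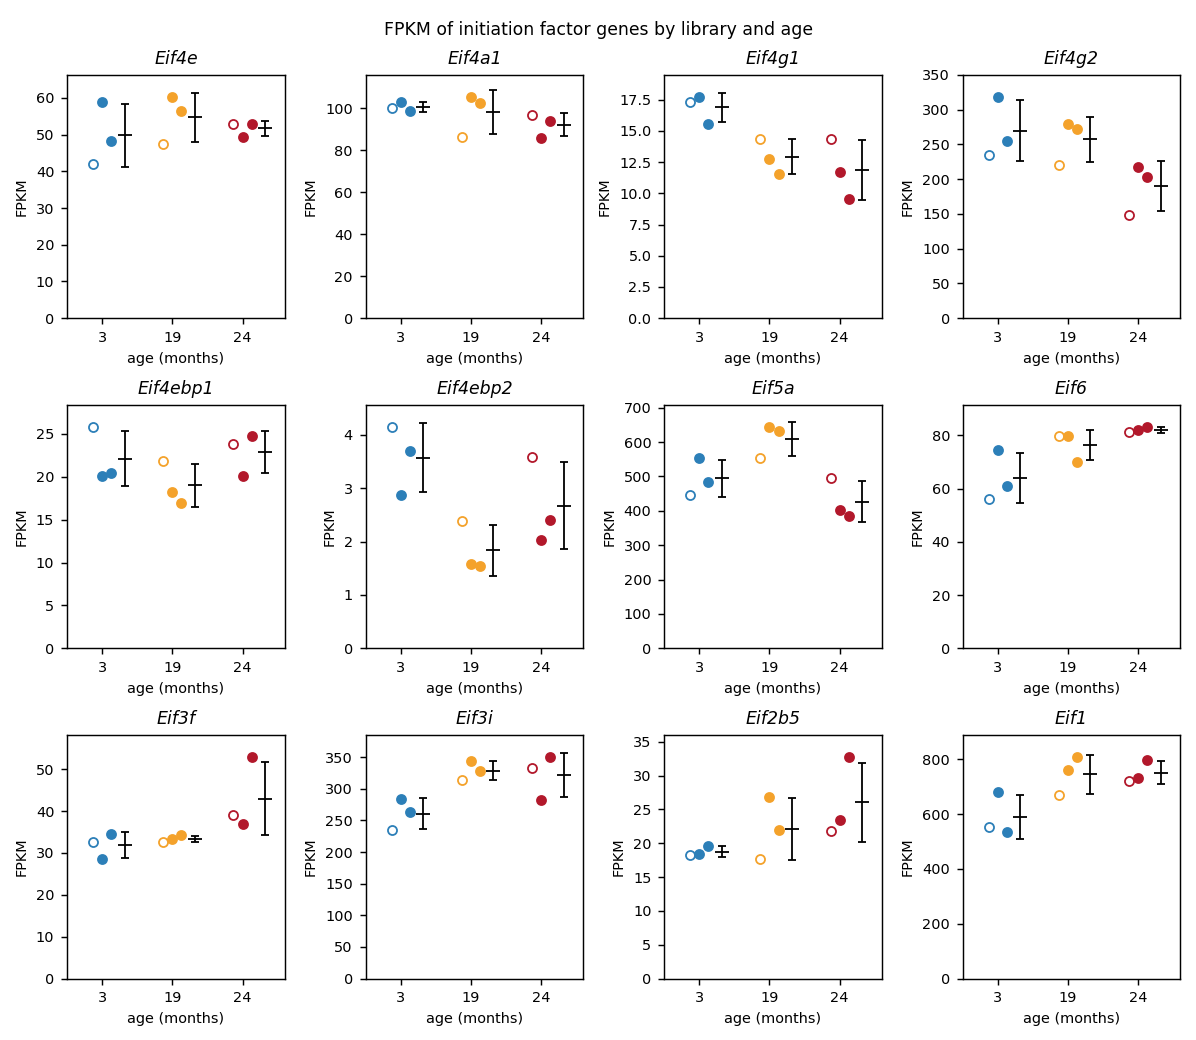
FPKM of 12 initiation factor genes by age, with 1 point per library and the mean ± SD of 3 libraries as a black bar, on axes that start at 0. Open circles mark the 3 libraries that did not share low-value steps with the other 6. Eif4g1 lies at 9.54 to 14.4 FPKM in the older libraries and at 15.6 to 17.7 FPKM at 3 months. The mean of Eif5a is lowest at 24 months, where its libraries overlap those of 3 months.

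Among the factors of subunit joining, Eif5a gave the largest difference between the older ages. Eif5a, the hypusine-bearing factor that keeps ribosomes moving and aids release, had 446, 553 and 484 FPKM at 3 months, 553, 644 and 632 at 19 months and 494, 402 and 384 at 24 months. All 3 libraries of 24 months lay below all 3 of 19 months, the 24-month range overlapped that of 3 months, and the lowest 19-month library, at 553.1 FPKM, lay just above the highest of 3 months, at 552.7 FPKM. The log2 change was -0.52 ± 0.15 (SE, adjusted p = 0.116 by limma) at 24 against 19 months, 0.30 ± 0.15 (SE, adjusted p = 0.326 by limma) at 19 against 3 months and -0.21 ± 0.15 (SE, adjusted p = 0.418 by limma) at 24 against 3 months. In the 6 libraries with shared low-value steps the change at 24 against 19 months was -0.70 with a limma adjusted p of 0.0493. The adjusted p ranged from 0.0493 to 0.428 over the 18 alternatives, and only this one was under the threshold. Eif5a2, its paralog, had 1.96, 3.101 and 2.41 FPKM at 3 months, 2.19, 2.87 and 1.89 at 19 months and 1.55, 2.64 and 1.69 at 24 months. Eif5a exceeded it by 153 to 334 times.

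Eif6, which keeps the large subunit from joining too early, had 56.3, 74.4 and 61.1 FPKM at 3 months, 79.6, 79.9 and 69.9 at 19 months and 81.1, 81.97 and 83.2 at 24 months. All 24-month libraries lay above those of both other ages and close to each other. The log2 change of Eif6 was 0.37 ± 0.13 (SE, adjusted p = 0.127 by limma) at 24 against 3 months and 0.10 ± 0.13 (SE, adjusted p = 0.804 by limma) at 24 against 19 months. Eif5b, the GTPase that joins the subunits, had 10.3, 12.3 and 13.1 FPKM at 3 months, 10.2, 11.4 and 12.9 at 19 months and 12.99, 14.1 and 13.8 at 24 months. The lowest library of 24 months, at 12.99 FPKM, lay just above the highest of 19 months, at 12.93 FPKM. Its log2 change was 0.23 ± 0.15 (SE, adjusted p = 0.574 by limma) at 24 against 19 months.

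The symbols Eif2c1 to Eif2c4 are older names of the Argonaute genes Ago1 to Ago4, whose proteins carry microRNAs and are not initiation factors. Their tested rows averaged between 3.97 and 8.76 FPKM, and 0 of 4 were called. The log2 change at 24 against 3 months was 0.37 ± 0.17 (SE, adjusted p = 0.236 by limma) for Eif2c1 and lay between -0.22 and 0.13 for the other 3. The second row of Eif2c2, at 11.0 to 21.8 FPKM, was not matched in the annotation used for gene types and was tested in the fit of all rows only. There its log2 change at 24 against 3 months was 0.33 ± 0.18 (SE, adjusted p = 0.362 by limma). The lower Eif2c2 row went the other way in that fit, at -0.22 ± 0.17 (SE, adjusted p = 0.511 by limma), so the direction for this gene is uncertain.

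Some rows had libraries that did not overlap between ages, as did some of all genes tested. At 19 against 3 months 6 of 51 lay wholly higher and 4 wholly lower, against 11.0% and 11.6% of all genes. At 24 against 3 months 9 lay wholly higher and 5 wholly lower, against 10.6% and 12%. At 24 against 19 months 3 lay wholly higher and 6 wholly lower, against 7.94% and 10.4%.

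The lowest-numbered library of each age, which is also the one that shared no low-value steps with the other 6, held the lowest value of its age at all 3 ages for 8 of the 51 rows, against 9.67% of all genes. These were Eif1a, Eif2b5, Eif2c1, Eif2s1, Eif3a, Eif3e, Eif4g2 and Eif5b. It held the highest value at all 3 ages for 1 of the 51, Eif4ebp2, against 3.48% of all genes. The counts of calls without these 3 libraries are those of the fit of the 6.

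Promoters were searched for the E-box CACGTG, the site of MYC and related factors, which is its own reverse complement. RefSeq windows from 250 bases before to 50 after a gene start, on GRCm38.p6, were found for 40 of the genes, or 36 without the Argonaute genes. A window with at least 1 E-box was listed for 10 of the 40, or 25.0%, and the same 10 were 27.8% of the 36. They were Eif1b, Eif3a, Eif3f, Eif3k, Eif4a1, Eif4e, Eif4g1, Eif4h, Eif5a and Eif5a2. The same share was 8.09% of 27025 genes with a window and 11.9% of 9131 that were also tested for expression. A gene with several listed starts counts once and has more chances to match. Shown here are 1 site each from the cap-binding protein, the scaffold with lower estimates at the older ages, the factor with the largest difference between 24 and 19 months, and the eIF3 subunit with the largest estimate at 24 against 3 months. Capitals mark the E-box, whose first base lies at -64, -54, -74 and -68 from a listed start.
Eif4e, chr3:138527184-138527229, plus strand: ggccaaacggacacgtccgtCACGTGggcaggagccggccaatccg
Eif4g1, chr16:20672653-20672698, plus strand: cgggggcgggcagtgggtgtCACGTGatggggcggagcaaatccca
Eif5a, chr11:69921435-69921480, minus strand: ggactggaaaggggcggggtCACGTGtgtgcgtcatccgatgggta
Eif3f, chr7:108934327-108934372, plus strand: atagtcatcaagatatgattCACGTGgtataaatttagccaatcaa
Eif4g1 and Eif5a had their lowest mean at 24 months and Eif3f its highest, and the log2 changes of Eif4e were 0.14, 0.07 and -0.07 at 19 against 3, 24 against 3 and 24 against 19 months. The match describes letters in the window and says nothing about binding in these cells.

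Upstream of the 4E-BPs, 22 genes of mTORC1 and of the kinases and inhibitors of eIF4E and eIF4A were tested. At 19 against 3 months 1 was called, against 1.56% of all genes tested. Mknk2, a kinase that phosphorylates eIF4E on the eIF4G scaffold, had 29.7, 28.2 and 35.99 FPKM at 3 months, 19.3, 18.5 and 17.1 at 19 months and 23.3, 27.2 and 26.9 at 24 months. All 19-month libraries lay below those of both other ages, and Mknk2 fell at 19 against 3 months by a log2 change of -0.73 ± 0.14 (SE, adjusted p = 0.0148 by limma). That call was lost over all gene types (adjusted p = 0.0769) and without replicate 3 of 3 months, replicate 2 of 19 months or replicate 3 of 19 months (limma adjusted p of 0.0518 to 0.0827). At 24 against 19 months its log2 change was 0.47 ± 0.14 (SE, adjusted p = 0.144 by limma). Mtor, the kinase itself, averaged 9.51 ± 3.02 FPKM at 3 months, 7.76 ± 1.25 at 19 months and 7.52 ± 1.67 at 24 months (SD, n = 3 each), and its effector Rps6kb1 averaged 31.3 ± 3.1 FPKM at 3 months, 26.8 ± 2.33 at 19 months and 27.3 ± 0.961 at 24 months (SD, n = 3 each). Pdcd4, an inhibitor of eIF4A, averaged 6.61 ± 1.2 FPKM at 3 months, 7.38 ± 0.89 at 19 months and 5.31 ± 0.203 at 24 months (SD, n = 3 each), and Ddit4, an inhibitor of mTORC1, averaged 1.34 ± 0.292 FPKM at 3 months, 0.651 ± 0.0535 at 19 months and 0.74 ± 0.379 at 24 months (SD, n = 3 each). In the 24 against 3 and 24 against 19 month comparisons, 0 of the 22 genes were called, against 3.84% and 0.93% of all genes.

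Of 26 tested genes of the eIF2 kinases, their phosphatase and the stress response downstream of eIF2 alpha, 0, 3 and 0 were called at 19 against 3, 24 against 3 and 24 against 19 months. The shares over all genes tested were 1.56%, 3.84% and 0.93%. Ppp1r15a, the subunit that directs a phosphatase to eIF2 alpha, had 32.9, 27.2 and 17.5 FPKM at 3 months, 34.6, 23.7 and 28.02 at 19 months and 39.7, 47.4 and 49.6 at 24 months. It rose at 24 against 3 months by a log2 change of 0.83 ± 0.20 (SE, adjusted p = 0.0332 by limma), and all 24-month libraries lay above all others. Nupr1, a stress-induced nuclear protein, averaged 53.7 ± 5.49 FPKM at 3 months, 72.7 ± 5.74 at 19 months and 91 ± 20.1 at 24 months (SD, n = 3 each) and rose at 24 against 3 months by 0.73 ± 0.16 (SE, adjusted p = 0.0215 by limma). Phgdh, the first enzyme of serine synthesis and a target of ATF4, averaged 63.7 ± 5.69 FPKM at 3 months, 45.7 ± 2.16 at 19 months and 43.3 ± 5.94 at 24 months (SD, n = 3 each) and fell at 24 against 3 months, with a log2 change of -0.55 ± 0.14 (SE, adjusted p = 0.0356 by limma). The 3 genes that passed did not share a direction. Over all gene types the adjusted p was 0.138 for Ppp1r15a, 0.104 for Nupr1 and 0.0922 for Phgdh, and each call was lost without 1 of several libraries: for Ppp1r15a replicate 2 or 3 of 3 months or replicate 3 or 4 of 24 months (limma adjusted p of 0.0685 to 0.127). Nupr1 lost its call without replicate 2 or 3 of 3 months or replicate 2 or 4 of 24 months (limma adjusted p of 0.066 to 0.109). Phgdh lost it without any of the 3 libraries of 3 months, replicate 2 or 3 of 19 months, or replicate 2 or 4 of 24 months (limma adjusted p of 0.0512 to 0.16). In the fit of the 6 libraries Nupr1 and Phgdh were not called (limma adjusted p of 0.0733 and 0.0778). Without the filter on level, Ppp1r15a, Nupr1 and Phgdh all lost their calls (limma adjusted p of 0.127, 0.082 and 0.0667).

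The transcription factors of that response and the kinases themselves did not pass. Atf4, translated when eIF2 alpha is phosphorylated, averaged 52 ± 2.66 FPKM at 3 months, 62.3 ± 2.84 at 19 months and 64.7 ± 5.93 at 24 months (SD, n = 3 each), with a log2 change of 0.31 ± 0.12 (SE, adjusted p = 0.163 by limma) at 24 against 3 months. Ddit3 averaged 39.5 ± 0.709 FPKM at 3 months, 48.6 ± 4.19 at 19 months and 47 ± 7.25 at 24 months (SD, n = 3 each). Asns, an amino acid enzyme under ATF4, averaged 23.3 ± 3.48 FPKM at 3 months, 27.6 ± 3.65 at 19 months and 19.3 ± 2.54 at 24 months (SD, n = 3 each), and Trib3 averaged 1.64 ± 0.291 FPKM at 3 months, 1.19 ± 0.123 at 19 months and 1.05 ± 0.926 at 24 months (SD, n = 3 each). Eif2ak1, the haem-regulated kinase, ran from 4.99 to 8.51 FPKM, Eif2ak2, the kinase activated by double-stranded RNA, from 5.08 to 9.21 FPKM, Eif2ak3, that of the endoplasmic reticulum, from 2.08 to 3.70 FPKM and Eif2ak4, that of amino acid starvation, from 1.61 to 3.0 FPKM. Eif2ak2 had the largest estimate of the 4, with a log2 change of -0.43 ± 0.18 (SE, adjusted p = 0.171 by limma) at 24 against 3 months.

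**Figure D5:**
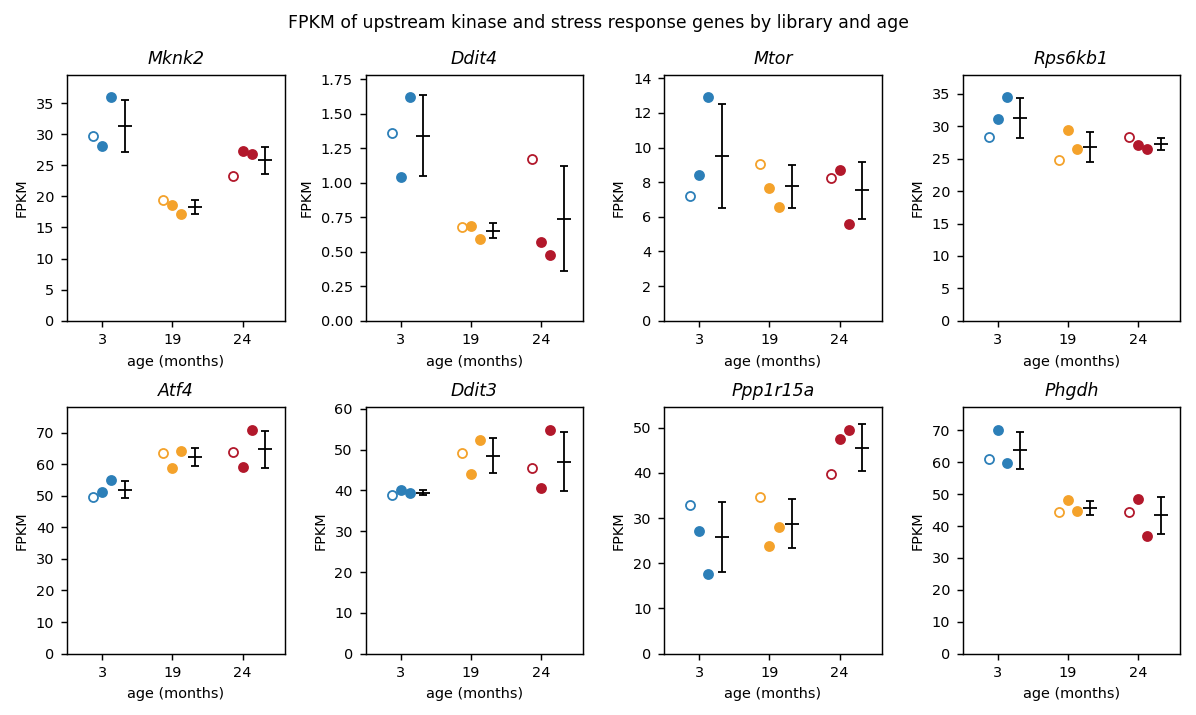
FPKM of 8 genes upstream or downstream of initiation factors by age, with 1 point per library and the mean ± SD of 3 libraries as a black bar, on axes that start at 0. Open circles mark the 3 libraries that did not share low-value steps with the other 6; Mknk2 is lowest at 19 months and Ppp1r15a highest at 24 months.

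Neighbouring steps of translation were counted in the same way. Of 16 poly(A)-binding and other initiation cofactors 0 were called in any comparison, and Pabpc1, the poly(A)-binding protein that closes the mRNA loop with eIF4G, averaged 106 ± 11.1 FPKM at 3 months, 110 ± 22.2 at 19 months and 133 ± 20.4 at 24 months (SD, n = 3 each). Of 14 elongation, release and hypusine genes 0 were called in any comparison. Eef1a1, which brings aminoacyl-tRNA to the ribosome, averaged 2310 ± 195 FPKM at 3 months, 2890 ± 273 at 19 months and 2770 ± 246 at 24 months (SD, n = 3 each), and Eef2, the translocase, averaged 731 ± 229 FPKM at 3 months, 814 ± 105 at 19 months and 733 ± 119 at 24 months (SD, n = 3 each). Of 76 cytosolic ribosomal protein genes, 0, 3 and 0 were called at 19 against 3, 24 against 3 and 24 against 19 months, all 3 higher, against the 1.5% of all genes called higher at 24 against 3 months. Their median log2 change was 0.22, 0.39 and 0.17, with 74 of 76 above 0 in each comparison, beside the initiation factor medians of 0.06, 0.08 and 0.00. The 3 were Rpl12, Rpl21 and Rps23, and each lost its call over all gene types, with limma adjusted p of 0.0886, 0.117 and 0.115. Each call was also lost without the filter on level (limma adjusted p of 0.0639, 0.0939 and 0.118). Rpl12 also lost it without replicate 2 or 3 of 3 months or replicate 2 or 4 of 24 months (limma adjusted p of 0.06 to 0.118). For Rpl21 these were any of the 3 libraries of 3 months, replicate 2 or 3 of 19 months and replicate 2 or 4 of 24 months (limma adjusted p of 0.0564 to 0.163). For Rps23 they were every library other than replicate 3 of 24 months (limma adjusted p of 0.0567 to 0.165). In the fit of the 6 libraries none of these 3 was called, with limma adjusted p of 0.0816, 0.136 and 0.16. Ribosomal protein genes have many near-identical pseudogenes, which may share their reads.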

How the data were processed

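The authors sequenced RNA of sorted cells, 9 libraries in all, and deposited 1 FPKM value per row and library, which is a normalized unit and not a count. Per the submitters' processing notes, the tools were TopHat and Cuffdiff and the build was NCBIM37; their versions are not stated there. Gene types came from GENCODE M21 by Ensembl identifier, which matched 32935 of 37980 rows. That annotation is on another build, so no coordinates of the table are printed.

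Samples were grouped by the age in their labels. Differences were tested with limma 3.58.1 in R 4.3.3, on log2(FPKM + 1), letting the prior variance follow the mean. A fold change on this scale understates the change of low genes. All 9 libraries and 3 ages entered 1 model, on protein-coding rows that reached 1 FPKM in 3 or more libraries. In 36 rows of the table every library of an age was 0 and every library of another age at least 5 FPKM, and these were left out. Zeros of that kind may be failed estimates. Benjamini-Hochberg adjustment ran over 11509 genes, two-sided, with a threshold of 0.05. The same fit was also run on simulated data, and the outcome is not given here. Fitting protein-coding rows apart was chosen in earlier work on these data, when it was known to call more genes. The genes, lists and tests here were likewise chosen with earlier results of these data known.

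Named genes were the 4 with the largest absolute change in each comparison, fixed representatives of each role, and, from the lists, called genes and fixed representatives. Alternatives varied the pseudocount, filter, gene types, scaling, prior and libraries, with the replicate number as a block as one of them. Leaving out the 3 libraries whose low values share no steps with the other 6 was chosen after seeing the data. Promoter windows are from RefSeq. Protein sequences were not used here.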

Additional observations from a re-analysis of the deposited data

How the results depend on the processing

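The count of initiation factor genes past the threshold was 0 in all 3 comparisons under each of 17 alternative settings, and 0 to 0 when 1 library was left out. With the replicate block it was 0 in each comparison as well. Replicate number 4 occurs at 24 months only, so the block in effect takes that library out of the comparisons. With that block the calls of Nupr1, Phgdh, Rpl12, Rpl21 and Rps23 at 24 against 3 months were lost, with limma adjusted p of 0.0935, 0.145, 0.1, 0.106 and 0.15. Same-numbered libraries of different ages correlated in their deviations at -0.20 to 0.19, with 3 of 7 pairs over 0.1, and not every library correlated best with its own number, so the numbers are taken as names only. With the 6 libraries that share low-value steps, an alternative chosen after seeing the data, the count at 24 against 19 months was 1, Eif5a, from fewer libraries. In each comparison the number of rows whose 95% interval lay within 1 log2 unit of 0 stayed within 1.5 times its value of 50 under every alternative. The count cannot exceed the number of rows tested, so this limit is wide and says little about stability. Of 27 results for named genes, 0 changed direction. These were the 4 largest changes in each comparison, initiation factor rows with an unadjusted p under 0.05 by limma, and called genes from the lists. They were picked for their size in these same data, so the count says little about stability. Fixed representatives with estimates near 0 were not among them on that ground. At 24 against 19 months the number of eIF3 subunits above 0 was 1 of 13 with the replicate block, against 7 without. Of all 51 rows it was 13, against 25 without the block and 15 with only replicate 4 of 24 months left out. The block and the loss of that library are thus not separate checks, and what else the block changed was not tested. No scaling moved the median of all genes beyond 0.05 log2 units. Unknown depth leaves the precision of rows under about 3 FPKM, such as Eif4ebp2, Eif3j and Eif5a2, unquantified beyond the spread of 3 libraries.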
